A study of Mus musculus with 48 samples.

Results

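The 36 cell cycle and DNA replication genes described here were followed across 3 mouse tissues, liver, brown fat (BAT) and the white fat pad of the epididymis (eWAT), in animals that differed in hepatocyte angiotensinogen and in housing temperature. The set was drawn up as a list of mouse gene symbols, and each symbol matched 1 of the 56748 Ensembl gene identifiers that were counted, so all 36 had a value in every library. Of these, 12 act in DNA replication: the helicase subunits Mcm2 to Mcm7 with their loading factor Cdc6 and their activating cofactor Cdc45, the sliding clamp Pcna, and the nucleotide-synthesis enzymes Rrm1, Rrm2 and Tyms. The other 24 act mainly in mitosis. They are 8 cyclins, kinases and a transcription factor (Ccna2, Ccnb1, Ccnb2, Cdk1, Aurka, Aurkb, Plk1, Foxm1), 5 checkpoint and ubiquitin-ligase genes (Bub1, Bub1b, Ttk, Cdc20, Ube2c), 9 spindle, kinetochore and cytokinesis genes (Cenpe, Cenpf, Kif11, Kif20a, Kif23, Tpx2, Nusap1, Prc1, Birc5), and the proliferation-associated genes Top2a and Mki67.

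A cell that divides first licenses its replication origins by loading the Mcm2-7 helicase in G1 phase, copies its DNA in S phase with the help of Pcna and a supply of deoxynucleotides, and then condenses and separates its chromosomes under the control of Cdk1 with cyclin B. Transcripts of the replication genes are known to be driven mainly by E2F factors at the G1/S transition, and those of the mitotic genes later, through the DREAM and B-Myb complexes and Foxm1. In adult liver and fat most hepatocytes and adipocytes do not divide, and dividing cells include adipocyte progenitors, endothelial cells and immune cells.

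The question posed by the design was how a lack of hepatocyte angiotensinogen (Agt, from which angiotensin peptides are cut) and housing without cold stress alter these tissues on an obesogenic diet. All animals were male littermates fed a Western diet (21% milk fat, 0.2% cholesterol) for 12 weeks. KO stands for hepAGT-/- mice, in which Agt was deleted in hepatocytes, and WT for their hepAGT+/+ littermates; the labels do not name the Cre driver or give ages. Cages stood at 20 to 22 °C, called room temperature (RT), or at 30 °C, called thermoneutral (TN), the temperature at which a mouse spends no extra energy on keeping warm. Each of the 12 groups of tissue, genotype and housing had 4 libraries of bulk RNA, 48 in all and 16 per tissue, which the titles call biological replicates.

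Levels are given as CPM, the count of a gene per megacount of its library, scaled within a tissue by edgeR's TMM factors, and differences as log2 changes from edgeR's quasi-likelihood test. The test gives no standard error. The SE printed here was derived from it, as the absolute log2 change divided by the square root of the F statistic. A gene is called higher or lower at a Benjamini-Hochberg adjusted p under 0.05 over all genes tested in that tissue. Total counts per library, in megacounts, ran from 23.7 to 36.5 in liver, 25.3 to 39.4 in BAT and 28.7 to 43.7 in eWAT. Markers of each tissue were high where the labels place them: 8 hepatocyte genes summed to 58711 to 102339 CPM in liver, 7 brown adipocyte genes to 3027 to 18293 CPM in BAT against 14.1 to 44.6 CPM in eWAT, and 6 adipocyte genes to 12264 to 20968 CPM in eWAT. Agt in liver was 276 to 434 CPM in WT RT, 143 to 202 CPM in KO RT, 309 to 504 CPM in WT TN and 125 to 207 CPM in KO TN, so that WT and KO did not overlap at either temperature. Some libraries stood apart. In 5 BAT libraries (KO RT replicates 14 and 19, WT TN replicates 6 and 24, KO TN replicate 2) 7 skeletal muscle genes summed to 1183 to 5621 CPM, and in 1 eWAT library (WT RT replicate 18) 8 epididymis genes summed to 991 CPM. Hepatocyte genes summed to as much as 4336 CPM in eWAT.

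The promoters of the members are shown for a few genes on which the results below turn: mitotic genes called higher in BAT at 30 °C in at least 1 genotype (Top2a, Mki67, Cdk1), replication genes called higher there (Mcm5, Mcm6) and the 1 member called lower (Rrm1). Each is the 150 bases just before the start site in RefSeq on GRCm38.p6, written 5′ to 3′ in the gene's own direction. Capitals mark CCAAT (the NF-Y box), TTTGAA (a cell cycle homology region element) and TTTNNCGC (an E2F site), each on either strand; in Mcm6 a run of capitals holds overlapping E2F matches on both strands.
Top2a, chr11:99024190-99024339, minus strand: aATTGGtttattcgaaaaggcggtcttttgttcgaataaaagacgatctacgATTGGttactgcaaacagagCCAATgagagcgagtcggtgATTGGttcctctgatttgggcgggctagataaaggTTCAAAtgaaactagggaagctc
Mki67, chr7:135716380-135716529, minus strand: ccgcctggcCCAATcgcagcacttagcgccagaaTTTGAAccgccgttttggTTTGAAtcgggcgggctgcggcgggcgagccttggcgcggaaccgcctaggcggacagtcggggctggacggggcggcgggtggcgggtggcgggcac
Cdk1, chr10:69352913-69353062, minus strand: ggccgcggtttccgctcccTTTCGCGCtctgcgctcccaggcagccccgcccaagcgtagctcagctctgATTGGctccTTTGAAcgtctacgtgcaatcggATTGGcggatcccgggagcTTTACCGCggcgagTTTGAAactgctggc
Mcm5, chr8:75109359-75109508, plus strand: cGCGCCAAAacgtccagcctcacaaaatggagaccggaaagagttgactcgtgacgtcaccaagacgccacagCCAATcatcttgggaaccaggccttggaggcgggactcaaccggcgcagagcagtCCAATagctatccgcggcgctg
Mcm6, chr1:128359706-128359855, minus strand: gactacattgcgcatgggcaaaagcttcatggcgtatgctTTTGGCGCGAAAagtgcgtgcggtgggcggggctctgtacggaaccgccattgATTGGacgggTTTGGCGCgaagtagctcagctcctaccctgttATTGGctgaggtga
Rrm1, chr7:102441545-102441694, plus strand: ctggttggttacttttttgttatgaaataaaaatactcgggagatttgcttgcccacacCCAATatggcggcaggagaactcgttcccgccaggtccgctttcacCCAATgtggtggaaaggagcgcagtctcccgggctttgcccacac
Over the full windows of 300 bases (250 before to 50 after the start), which the RefSeq table held for 30 of the 36 members in 32 windows, the letters CCAAT occurred in 87.5% of member windows against 37.4% of all 32851 windows. TTTGAA occurred in 75.0% of the 20 mitotic and 16.7% of the 12 replication windows, against 17.9% of all windows. TTTNNCGC showed the opposite split, with 5.0% of the mitotic, 50% of the replication and 5.17% of all windows. A further element of the same family, TTTAAA, occurred in 25% of member windows against 13.2% of all windows. These matches describe letters only, and the 6 members Ccna2, Aurkb, Kif20a, Tpx2, Mcm4 and Foxm1 had no window in the table.

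Most members were lower in BAT and in liver than in eWAT. With the 4 groups of a tissue weighted equally in a fit over all 48 libraries, 29 of the 36 members were lower and 2 higher in BAT than in eWAT, and 26 were lower and 2 higher in liver than in eWAT. Tissues differ in most genes, and over all 21910 genes tested 60.3% were called in the former comparison (31.1% lower) and 73.8% in the latter (38.3% lower). The members' median log2 difference was -1.05 for BAT against eWAT and -0.998 for liver against eWAT. For Top2a, topoisomerase II alpha, which untangles replicated chromosomes, the difference from eWAT was -1.78 (SE 0.26, adjusted p = 8.18e-08) in BAT, and for the proliferation antigen Mki67 it was -1.56 (SE 0.24, adjusted p = 3.77e-07) in BAT and -1.45 (SE 0.24, adjusted p = 7.38e-07) in liver. The members above eWAT in BAT were Rrm1, the large subunit of ribonucleotide reductase, at 0.83 (SE 0.10, adjusted p = 2.93e-09), and Ube2c, at 1.28 (SE 0.54, adjusted p = 0.0393). The highest Ube2c values stood in a few BAT libraries with skeletal muscle transcripts, listed below. Scaled by TMM over all 48 libraries, Ube2c had a mean of 9.85 CPM in BAT and 3.03 CPM in eWAT. Its median, however, was 1.76 CPM in BAT and 2.99 CPM in eWAT. With single libraries left out its adjusted p was 0.0215 to 0.18, the latter without BAT WT RT replicate 15, and it was 0.134 without BAT KO RT replicate 14 and 0.142 without BAT KO TN replicate 2. Those above eWAT in liver were Tyms (thymidylate synthase), at 1.13 (SE 0.12, adjusted p = 9.86e-12), and Rrm2, the small ribonucleotide reductase subunit. The members called in neither direction were Cdc20, Cdc45, Cdc6, Ttk and Tyms for BAT against eWAT and Birc5, Ccnb2, Cdc20, Cdk1, Kif11, Mcm2, Plk1 and Rrm1 for liver against eWAT. Rrm2 was higher in liver by 1.53 against eWAT (adjusted p = 1.9e-08) and by 2.67 against BAT (adjusted p = 4.05e-14), while Cdc45, the helicase cofactor, was lower in liver than in either, by -1.98 (adjusted p = 2.34e-14) against eWAT and -1.64 (adjusted p = 5.36e-12) against BAT. Liver and BAT split the set, with 10 members higher and 5 lower in liver against 31.6% and 37% of all genes. Higher in liver were Birc5, Ccnb2, Cdk1, Kif11, Mcm2, Mcm3, Mcm5, Rrm2, Top2a and Tyms, and lower were Bub1b, Cdc45, Cdc6, Rrm1 and Ube2c. All of these tissue differences average the RT and TN groups. BAT levels of many members changed with housing, as given below, so a direction need not hold at each temperature. For Top2a, scaled over all 48 libraries, the mean was 3.48 CPM in BAT and 2.94 CPM in liver, and the median 2.03 and 2.46 CPM. In bulk tissue fewer dividing cells and less RNA per dividing cell cannot be told apart, which holds for every difference below.

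**Figure D1:**
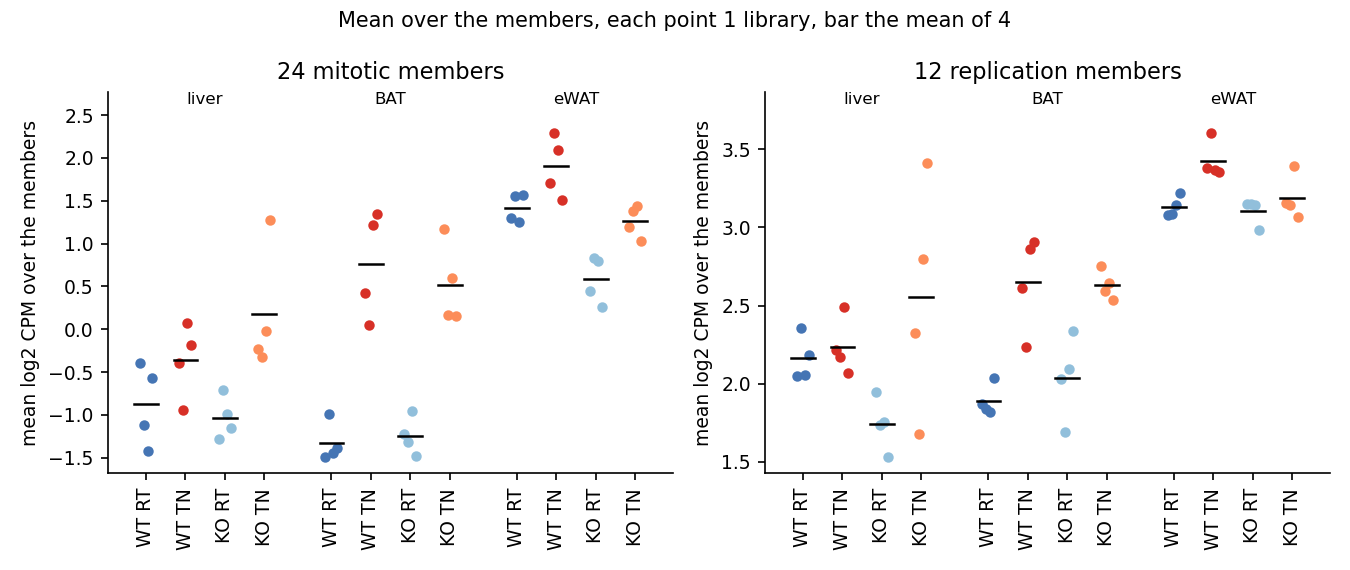
Mean log2 CPM (prior count 2) of the 24 mitotic and of the 12 replication members in each of the 48 libraries, by tissue, genotype and housing. In BAT the mitotic means of both TN groups lie above those of both RT groups (group means 0.52 and 0.76 against -1.24 and -1.33), while in liver the KO TN group is spread widely.

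The level of the set over a library was summarised as the mean log2 CPM of the 36 members. In BAT this mean was -0.26 ± 0.15 (SD, n = 4) in WT RT and -0.15 ± 0.16 in KO RT, and 1.39 ± 0.51 in WT TN and 1.23 ± 0.35 in KO TN. In eWAT the group means were 1.99 in WT RT, 2.41 in WT TN, 1.43 in KO RT and 1.90 in KO TN. In liver they were 0.14, 0.50, -0.11 and 0.97 in the same order, with an SD of 0.72 in KO TN. The highest of the 16 BAT libraries was a TN library for 30 of the 36 members (21 in WT TN, 9 in KO TN). In eWAT it was a WT TN library for 27 members and in liver a KO TN library for 29. A single library accounted for much of this in eWAT and liver, where replicate 6 of WT TN held 18 and replicate 5 of KO TN held 27 of the highest values.

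Brown fat at thermoneutrality held more of the cell cycle transcripts than brown fat at room temperature, in both genotypes. In WT mice 19 of the 36 members passed upward and 1 downward from RT to TN, and over all 18032 genes tested in BAT 15.9% were called higher and 16.7% lower. In KO mice 13 were called higher and 0 lower, against 6.64% and 8.52% of all genes. The median log2 change of the 36 was 1.72 in WT and 1.29 in KO, with 32 of 36 above 0 in each, beside medians of 0.11 and 0.040 over all genes. Libraries of the TN group all lay above those of the RT group for 19 members in WT and 20 in KO, which was the case for 12.9% and 9.54% of all genes. They all lay below for 1 member in each (Rrm1 in WT, Cdc45 in KO), as for 14.3% and 11.8% of all genes. Called higher in both genotypes were 11 members: Birc5, Cenpf, Kif11, Mcm5, Mcm6, Mki67, Nusap1, Prc1, Rrm2, Top2a and Tpx2. A further 8 were called higher in WT alone and 2 (Cdk1 and Pcna) in KO alone. The groups of the 2 genotypes share no libraries, but their tests came from 1 fit with 1 estimate of the spread, so the calls are not independent. How many of all genes were called higher in both was not counted.

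**Figure D2:**
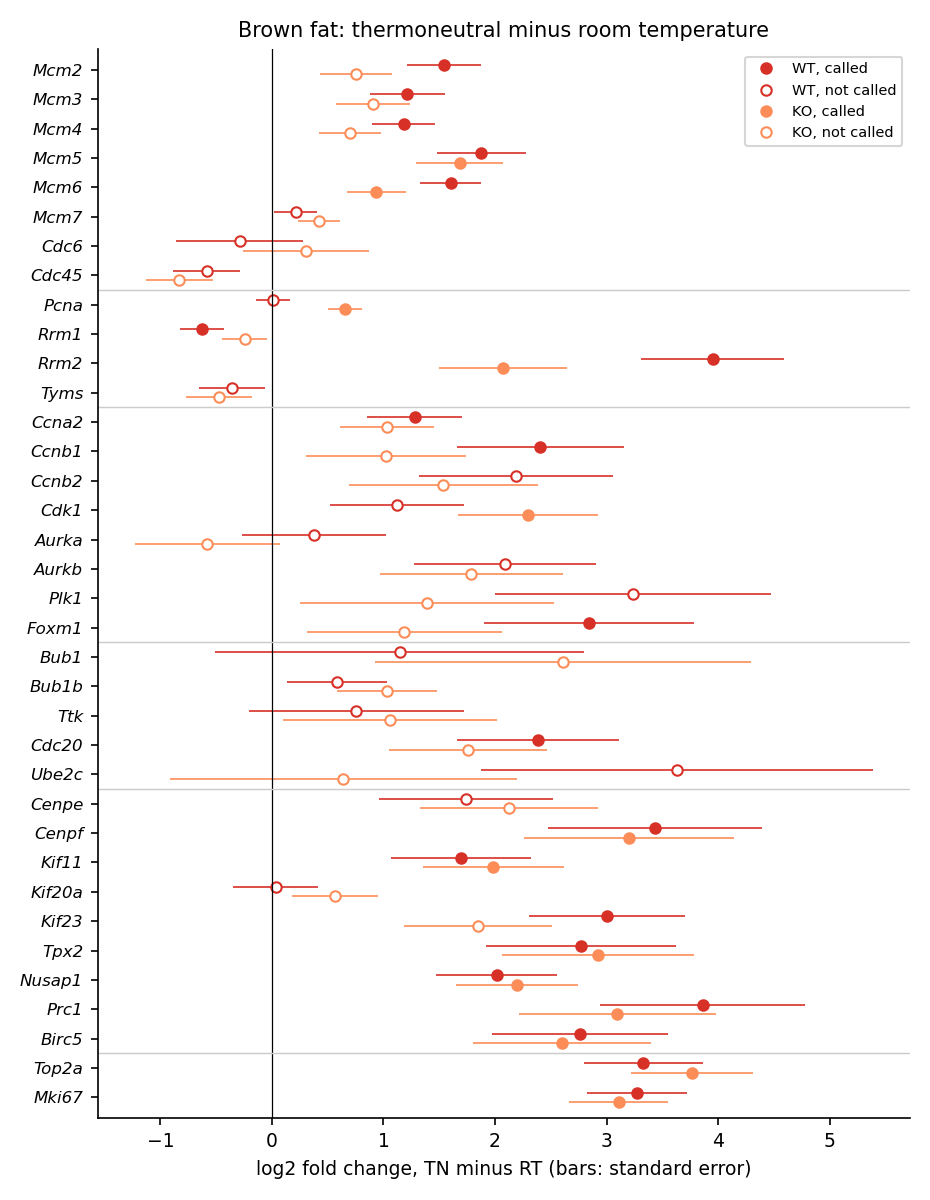
Log2 change from RT to TN in BAT for each of the 36 members, in WT and in KO, with bars of 1 SE and filled points for members called at an adjusted p under 0.05. Filled points lie to the right of 0 for 19 members in WT and 13 in KO, and Rrm1 in WT is the only filled point to the left.

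Of the 6 helicase genes 5 rose in WT and 2 in KO, against 15.9% and 6.64% of all genes. Libraries are listed here and below in rising order of replicate number (WT RT 12, 15, 17 and 18, WT TN 1, 6, 7 and 24, KO RT 9, 10, 14 and 19, and KO TN 2, 3, 4 and 5 in BAT). Mcm2 stood at 1.69, 1.01, 1 and 1.51 CPM in WT RT and 3.78, 3.51, 3.62 and 4.32 CPM in WT TN. In KO, Mcm2 had 3.33, 2.21, 1.62 and 1.83 CPM at RT and 5.77, 3.56, 3.01 and 2.82 CPM at TN. In WT the TN libraries all lay above the RT libraries, whereas in KO the groups overlapped. The log2 change of Mcm2 was 1.55 (SE 0.33, adjusted p = 0.00169) in WT and 0.75 (SE 0.32, adjusted p = 0.128) in KO. Mcm5, another helicase subunit, stood at 1.46, 0.469, 0.8004 and 0.939 CPM in WT RT and 3.75, 3.67, 4.27 and 1.83 CPM in WT TN. In KO, Mcm5 had 1.19, 1.12, 0.955 and 1.43 CPM at RT and 4.41, 3.12, 5.33 and 2.27 CPM at TN. Here both genotypes separated fully, with log2 changes of 1.88 (SE 0.40, adjusted p = 0.00159) in WT and 1.68 (SE 0.39, adjusted p = 0.00686) in KO. Mcm6 had 2.24 to 4.28 CPM in WT RT against 5.85 to 11.6 CPM in WT TN, and 3.07 to 5.78 CPM in KO RT against 7.197 to 10.2 CPM in KO TN, with no overlap in either genotype. It rose by 1.605 in WT (adjusted p = 0.000277) and by 0.94 in KO (adjusted p = 0.0228). Mcm3 and Mcm4 rose in WT by 1.21 and 1.18 (adjusted p = 0.00989 and 0.00373), and in KO their changes of 0.91 and 0.697 did not pass the test. The sixth subunit, Mcm7, had a change of 0.21 (adjusted p = 0.412) in WT. Cdc6, which loads the helicase, and Cdc45, which joins it on activation, had estimates on the other side of 0 in WT, -0.59 (adjusted p = 0.141) for Cdc45 and -0.29 (adjusted p = 0.727) for Cdc6, and Cdc45 in KO was at -0.83 (adjusted p = 0.0704) with all TN libraries below all RT libraries.

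At the fork and in nucleotide supply the members parted. Rrm2, the subunit of ribonucleotide reductase that is made anew in each S phase, stood at 0.271, 0.0335, 0.2401 and 0.313 CPM in WT RT and 1.82, 5.59, 4.01 and 1.8 CPM in WT TN. In KO, Rrm2 had 1.43, 0.783, 0.3304 and 0.266 CPM at RT and 3.54, 3.09, 2.85 and 2.38 CPM at TN. Every TN library was above every RT library of its genotype, and the log2 changes were 3.95 (SE 0.64, adjusted p = 0.000198) in WT, a 15.5-fold rise, and 2.07 (SE 0.57, adjusted p = 0.0196) in KO. Its partner Rrm1, the subunit that is present through the whole cycle, went the other way in WT. Rrm1 stood at 28.8, 37.4, 30.5 and 34.3 CPM in WT RT and 22.8, 18.3, 18.6 and 25.3 CPM in WT TN. In KO, Rrm1 had 16.1, 21.4, 27.8 and 30.4 CPM at RT and 15.5, 26.5, 21.2 and 17.5 CPM at TN. In WT all TN libraries were below all RT libraries and the change was -0.63 (SE 0.20, adjusted p = 0.0217), while in KO the groups overlapped at -0.25 (adjusted p = 0.477). The WT call on Rrm1 was lost under 4 of 14 alternative settings, where its adjusted p reached 0.0875. Pcna, the clamp that holds the polymerase on DNA, stood at 25.6, 40.1, 44.8 and 31.1 CPM in WT RT and 32.4, 34.9, 36.05 and 39.4 CPM in WT TN. In KO, Pcna had 20.7, 22.6, 19.4 and 25.6 CPM at RT and 38.3, 33.4, 32.1 and 35.1 CPM at TN. In WT the groups overlapped with a change of 0.01 (SE 0.15, adjusted p = 0.966). In KO every TN library lay above every RT library and Pcna rose by 0.65 (SE 0.16, adjusted p = 0.00773). Tyms had a change of -0.36 (adjusted p = 0.373) in WT and was not called in KO.

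**Figure D3:**
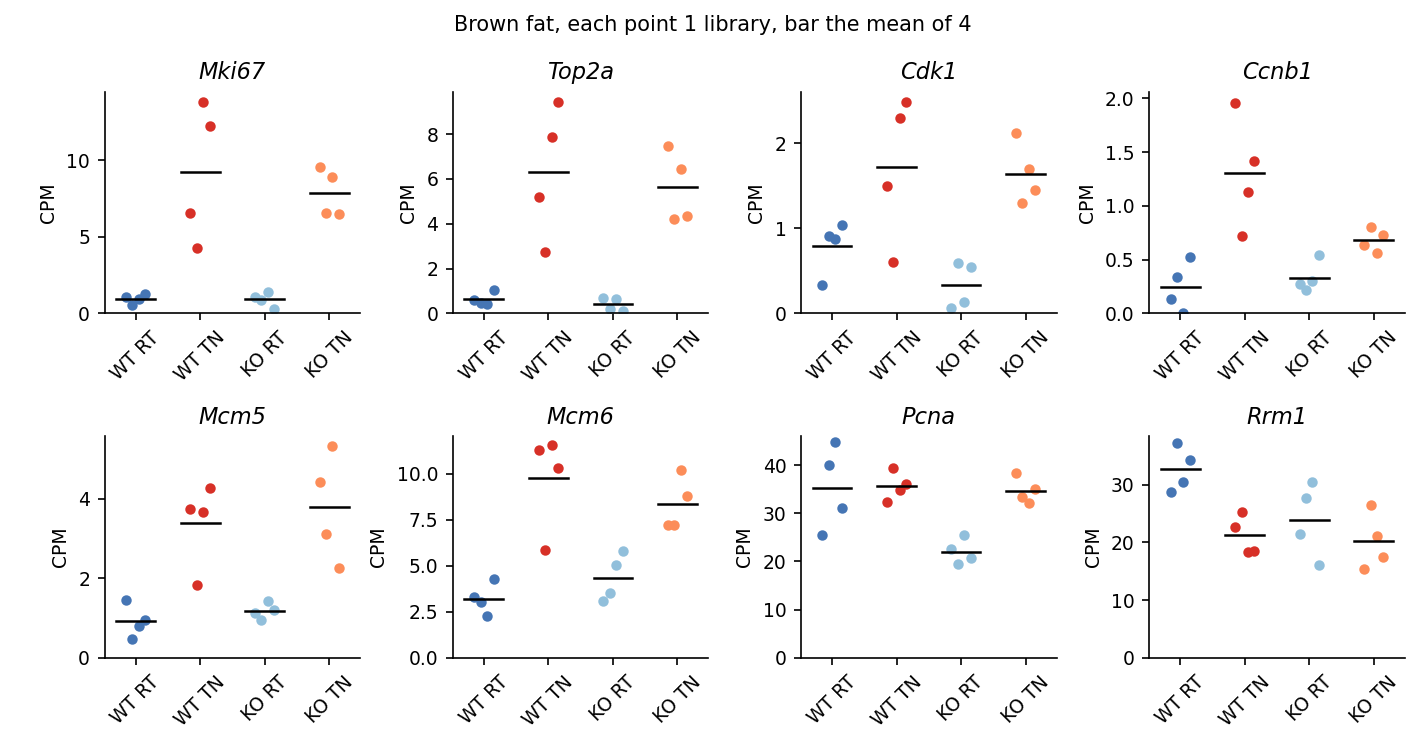
CPM of 8 members in each of the 16 BAT libraries by genotype and housing, with the group means. Mki67, Top2a, Mcm5 and Mcm6 lie higher in TN than in RT in both genotypes without overlap, whereas Rrm1 is lower at TN in WT, and Pcna is higher at TN in KO and overlaps in WT.

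Among the 8 cyclins, kinases and their regulator, 4 were called in at least 1 genotype (15.9% of all genes were called higher in WT and 6.64% in KO). Ccnb1, cyclin B1, which activates Cdk1 at mitotic entry, stood at 0.136, 0.335, 0 and 0.521 CPM in WT RT and 1.96, 1.13, 1.42 and 0.7199 CPM in WT TN. In KO, Ccnb1 had 0.544, 0.273, 0.2203 and 0.299 CPM at RT and 0.641, 0.7996, 0.558 and 0.726 CPM at TN. The groups did not overlap in either genotype, with a change of 2.41 (SE 0.75, adjusted p = 0.0199) in WT and 1.02 (SE 0.72, adjusted p = 0.401) in KO. Cdk1, the kinase that drives mitosis, stood at 0.339, 0.905, 0.8804 and 1.04 CPM in WT RT and 1.498, 2.29, 2.48 and 0.5999 CPM in WT TN. In KO, Cdk1 had 0.544, 0.0681, 0.587 and 0.133 CPM at RT and 2.13, 1.296, 1.702 and 1.45 CPM at TN. Its KO groups were apart and its WT groups overlapped, with changes of 2.296 (SE 0.63, adjusted p = 0.0181) in KO and 1.12 (SE 0.60, adjusted p = 0.161) in WT. Foxm1, a transcription factor of late cell cycle genes, rose in WT by 2.84 (adjusted p = 0.0271), with RT libraries at 0 to 0.737 CPM and TN libraries at 1.39 to 2.405 CPM. Ccna2, cyclin A2, rose in WT by 1.28 (adjusted p = 0.0278). Plk1, Aurkb and Ccnb2 had WT changes of 3.23, 2.09 and 2.19 that missed the threshold (adjusted p = 0.0528, 0.0566 and 0.0622), and Aurka, the centrosomal kinase, was at 0.38. The WT calls on Foxm1 and Ccna2 were lost under 5 and 4 of 14 alternative settings, among them the fit without the libraries rich in muscle transcripts.

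Of the checkpoint and ubiquitin-ligase genes, 1 of 5 was called, higher in WT, a share not far from the 15.9% of all genes called higher there. Cdc20, the activator that starts anaphase, had 0 to 0.542 CPM in WT RT and 0.5699 to 2.78 CPM in WT TN and rose by 2.39 (SE 0.73, adjusted p = 0.0173). The checkpoint kinases Bub1, Bub1b and Ttk had WT changes of 1.14, 0.58 and 0.76 and were not called in either genotype. Ube2c, the ubiquitin-conjugating enzyme of the anaphase-promoting complex, had a WT change of 3.63 (SE 1.76, adjusted p = 0.135). Its values are given with the muscle markers below.

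Of the 9 spindle, kinetochore and cytokinesis genes 7 were called higher in WT and 6 in KO, against 15.9% and 6.64% of all genes. Prc1, which bundles the microtubules of the central spindle, had 0 to 0.417 CPM in WT RT against 1.38 to 4.06 CPM in WT TN and 0 to 0.465 CPM in KO RT against 0.772 to 2.97 CPM in KO TN. Its changes were 3.86 (SE 0.92, adjusted p = 0.00364) and 3.097 (SE 0.89, adjusted p = 0.0231). Cenpf, a kinetochore protein, rose by 3.43 in WT and 3.198 in KO (adjusted p = 0.0108 and 0.027). Tpx2, which activates Aurora A on the spindle, rose by 2.77 and 2.92 (adjusted p = 0.0194 and 0.0273), and Nusap1, which stabilises spindle microtubules, by 2.02 and 2.19 (adjusted p = 0.00836 and 0.0103). Birc5 (survivin, of the chromosomal passenger complex) rose by 2.76 and 2.599 (adjusted p = 0.0122 and 0.0331). The motor Kif11, which pushes the spindle poles apart, rose by 1.69 and 1.98 (adjusted p = 0.046 and 0.0396). WT libraries of both genes overlapped between housing groups. Kif23, a kinesin of the midzone, was called in WT (3.01, adjusted p = 0.00309) and not in KO (1.85, adjusted p = 0.069). The kinetochore motor Cenpe stood at 1.74 (adjusted p = 0.0946) in WT and was not called in either genotype, and the other midzone kinesin, Kif20a, stood at 0.03 (adjusted p = 0.956) in WT.

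Mki67 and Top2a separated the housing groups in both genotypes. Mki67 stood at 1.08, 0.536, 0.961 and 1.25 CPM in WT RT and 6.53, 13.8, 12.3 and 4.26 CPM in WT TN. In KO, Mki67 had 0.272, 1.09, 0.881 and 1.39 CPM at RT and 9.53, 6.59, 8.93 and 6.51 CPM at TN. The lowest TN library, 4.26 CPM, was above the highest RT library, 1.39 CPM, and the changes were 3.27 (SE 0.45, adjusted p = 5.05e-05) in WT and 3.11 (SE 0.44, adjusted p = 0.000156) in KO, 9.64-fold and 8.64-fold. Top2a stood at 0.6101, 0.469, 0.4002 and 1.04 CPM in WT RT and 5.17, 7.85, 9.41 and 2.73 CPM in WT TN. In KO, Top2a had 0.102, 0.681, 0.184 and 0.664 CPM at RT and 7.48, 4.22, 6.44 and 4.33 CPM at TN. Again no TN library reached down to an RT library, and the changes were 3.33 (SE 0.53, adjusted p = 0.00017) in WT and 3.77 (SE 0.54, adjusted p = 0.000174) in KO. Both genes were called under all 14 alternative settings in each genotype.

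The count of calls changed more with the libraries used in KO than in WT. Without the 5 muscle-rich BAT libraries, an alternative chosen after seeing the data, 17 members were called in WT and 3 (Mki67, Top2a and Cenpf) in KO, where this left 2 RT and 3 TN libraries. Over all genes that fit called 1293 in KO, against 2735 of 18032 in the full fit. The members' median change was then 1.71 in WT and 1.02 in KO. Leaving out single KO libraries gave 7 calls without RT replicate 10, 7 without RT replicate 14 and 8 without TN replicate 2.

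Genotype had no called effect on the members in BAT. At RT 0 of 36 were called (0.0887% of all genes were, 0.0555% higher and 0.0333% lower). Unadjusted, 4 members and 3507 of all 18032 genes had a p under 0.05. DESeq2 called 1 member and 981 genes over all. The 3 lowest p-values were those of Pcna at -0.68 (SE 0.16, adjusted p = 0.0772) in KO against WT, Rrm2 at 1.72 (SE 0.62, adjusted p = 0.155) and Mcm2 at 0.79 (SE 0.33, adjusted p = 0.204). The KO libraries of Pcna lay below the WT libraries, as for 3.98% of all genes (0 members and 5.29% of all genes lay above), with the highest KO and the lowest WT library both at 25.6 CPM after rounding. At TN 0 of 36 were called, as was 0% of all genes, and DESeq2 called 0 members. Unadjusted, 0 members and 945 of all 18032 genes had a p under 0.05. Aurka, Ccnb1 and Aurkb had the lowest p, at -1.002 (SE 0.65, adjusted p = 0.999), -0.94 (adjusted p = 0.999) and -0.97 (adjusted p = 0.999). The difference in housing effect between KO and WT was called for 0 members and for 0% of all genes, with 2 members (1832 of all 18032 genes) at an unadjusted p under 0.05 and 0 members by DESeq2. It was 0.64 (SE 0.22, adjusted p = 0.457) for Pcna, -1.88 (SE 0.82, adjusted p = 0.475) for Rrm2 and -0.67 (SE 0.38, adjusted p = 0.536) for Mcm6. Members called in 1 genotype alone were therefore not shown to differ between genotypes.

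Of 105 further cell cycle genes tested in BAT, grouped in 5 lists, 43 rose and 4 fell from RT to TN in WT (15.9% and 16.7% of all genes did), and 26 rose and 0 fell in KO (6.64% and 8.52% of all genes), with median changes of 0.69 and 0.76. The list of other mitotic genes had 25 of 46 called higher in WT and 13 in KO, with 0 lower. Several of the 105 genes were not counted at all in WT RT. Kif15, a spindle kinesin, had 0 counts in all 4 WT RT libraries and 0.5699 to 2.05 CPM in WT TN, at least 45-fold higher against a floor of 3 counts over the group (adjusted p = 0.000389). In the same way the mitotic kinase Pbk was at least 23.4-fold (adjusted p = 0.00478), the Cdk1-activating phosphatase Cdc25c at least 16.4-fold (0.0193), the kinesin Kif18b at least 11.3-fold (0.00888) and the nuclease Exo1 at least 11.1-fold (0.025) higher. In KO the largest were the kinase Melk at least 27.9-fold (adjusted p = 0.00753), Pbk at least 21.5-fold (0.0106) and Kif18b at least 17-fold (0.0109) higher. Knl1, a kinetochore scaffold, was 35.9-fold higher in pooled counts (95% counting interval 9.66 to 301, adjusted p = 0.00796), and Nuf2, another kinetochore gene, had a change of 4.12 (SE 1.23, adjusted p = 0.0298). The folds given as at least a value divide the observed pooled level by that floor. They and the counting intervals, here and below, leave out the spread between libraries and set no limit on the change between animals. Of 29 other replication genes 9 rose and 3 fell in WT, and 7 rose in KO. The lower genes included Gmnn, geminin, the inhibitor of relicensing (-0.95, adjusted p = 0.0024), and Gins4, a helicase cofactor (-0.604, adjusted p = 0.0184).

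Upstream of the members, 5 of 13 genes of the E2F, RB and DREAM list were called higher in WT and 3 in KO, again beside 15.9% and 6.64% of all genes. They included Myc at 2.78 (adjusted p = 0.000166) in WT and 2.46 (adjusted p = 0.00102) in KO, and E2f8, a repressor E2F. E2f8 had 2 counts over the WT RT libraries and was 40.8-fold higher at TN in pooled counts (95% counting interval 11 to 341, adjusted p = 0.00386), and in KO its change was 3.57 (adjusted p = 0.0284). Of 8 G1 cyclins and kinases 2 were called higher in each genotype. Ccnd1, cyclin D1, which links growth signals to G1 progression, had 9.08 to 15.96 CPM in WT RT against 60.8 to 75.9 CPM in WT TN, and 10.2 to 12.9 CPM in KO RT against 23.4 to 47.7 CPM in KO TN. Housing groups did not overlap, and the changes were 2.49 (SE 0.21, adjusted p = 7.46e-07) and 1.56 (SE 0.21, adjusted p = 7.73e-05). At TN the KO libraries all lay below the WT libraries, but the genotype difference of -1.01 (adjusted p = 0.417) was not called. Of 9 CDK inhibitor and p53 genes 3 were called in WT, a share near the 32.5% of all genes called in either direction. They were Trp53 at 1.16 (adjusted p = 7.25e-05), Cdkn1b (p27) at 0.67 (adjusted p = 0.0123) and Cdkn2c (p18) at -0.598 (adjusted p = 0.00667). Cdkn1a, the p53-induced inhibitor p21, had changes of 0.45 (adjusted p = 0.551) and -0.06 (adjusted p = 0.964).

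Markers of several cell types moved with housing in BAT. The 10 macrophage genes summed to 42.3 to 146 CPM in WT RT and 184 to 348 CPM in WT TN, and to 53.8 to 64.2 CPM and 146 to 207 CPM in KO, with 8 of 10 called higher in each genotype. The 6 fibroblast and adipose progenitor genes summed to 246 to 398 CPM and 775 to 941 CPM in WT, and 219 to 348 CPM and 570.4 to 923 CPM in KO, with 4 of 6 called higher in each. Of 5 endothelial genes 3 were called higher in WT and 0 in KO, and of 7 T cell genes 0 in either. The 7 brown adipocyte genes ran the other way, with 5 called lower in each genotype and 8580 to 18293 CPM over the RT libraries against 3027 to 7197 CPM over the TN libraries. No gene of these lists was at 0 in all BAT libraries. The 10 B cell and germinal centre genes summed to 1.04 to 4.19 CPM in WT RT and 4.56 to 14.9 CPM in WT TN. In KO their sums overlapped, at 1.87 to 20.3 CPM at RT and 3.60 to 10.8 CPM at TN. The part of any of these cell types in the result was not tested.

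Ube2c was the member most tied to individual BAT libraries. It stood at 0.0678, 3.65, 0.961 and 0.104 CPM in WT RT and 1.36, 24.01, 1.84 and 33.6 CPM in WT TN. In KO, Ube2c had 1.46, 0.409, 22.9 and 7.17 CPM at RT and 36.9, 0.386, 1.14 and 11.3 CPM at TN. The 5 highest of the summed skeletal muscle markers, 5621, 4158, 3725, 3479 and 1183 CPM, belonged to libraries with 36.9, 33.6, 24.0, 22.9 and 7.17 CPM of Ube2c, and the 7 libraries with at most 10.1 CPM of muscle markers had 0.068 to 1.84 CPM of Ube2c. In the GENCODE M21 annotation of GRCm38, Ube2c shares 592 exon bases, 22.8% of its own, with Tnnc2 on the opposite strand, the gene of fast skeletal muscle troponin C. Whether the counting used strand is not given in the sources used here, and the part of Tnnc2 reads in the Ube2c values was not tested. The same limit applies to other members that share exon bases with a gene on the opposite strand: Kif20a with Cdc23 (29.3%), Ccna2 with Exosc9 (12.5%), Prc1 with Rccd1 (11.1%), Mcm7 with Ap4m1 (7.3%), Plk1 with Gm44985 (7.1%), Cdc45 with Ufd1 (6.0%), Nusap1 with Oip5 (4.2%) and Cdc20 with Elovl1 (2.8%). Pcna, Tyms, Ccnb1 and Ccnb2 have named pseudogenes with which reads could be shared, and their values are uncertain to that extent.

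**Figure D4:**
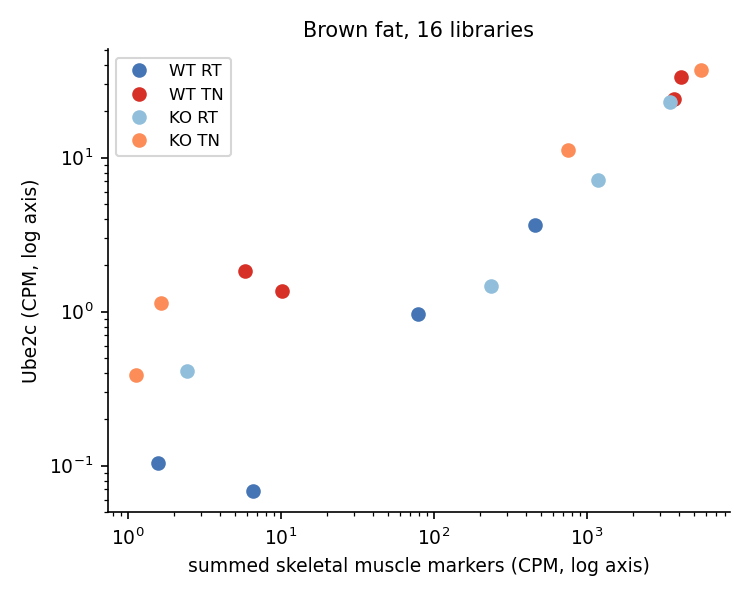
Ube2c CPM against the summed CPM of 7 skeletal muscle markers in the 16 BAT libraries, both on log axes, by genotype and housing. The 5 libraries with the most muscle transcripts hold 7.17 to 36.9 CPM of Ube2c, and the 7 with the least hold at most 1.84 CPM.

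In eWAT most members had lower estimates in KO than in WT, and 3 passed the test. At RT, 3 of 36 were called lower and 0 higher, against 3.13% and 1.2% of all 18933 genes tested (4.34% in either direction). Their median log2 difference was -0.53, with 31 of 36 below 0, and 7 members had all KO libraries below all WT libraries (6.89% of all genes did). Libraries are listed as WT RT 12, 13, 15 and 18, WT TN 6, 7, 8 and 23, KO RT 9, 10, 16 and 19, and KO TN 3, 4, 5 and 21. Cdk1 stood at 3.26, 4.41, 2.64 and 6.22 CPM in WT RT and 6.44, 6.13, 7.81 and 2.48 CPM in WT TN. In KO, Cdk1 had 0.521, 1.498, 0.727 and 1.298 CPM at RT and 2.76, 2.75, 1.39 and 1.66 CPM at TN. At RT each KO library was below each WT library, with a difference of -2.03 (SE 0.42, adjusted p = 0.0114), and at TN the difference was -1.42 (SE 0.41, adjusted p = 0.109) and the groups overlapped. Tpx2, the Aurora A activator, stood at 3.45, 5.08, 3.24 and 4.403 CPM in WT RT and 7.999, 5.47, 2.18 and 4.19 CPM in WT TN. In KO, Tpx2 had 0.878, 1.23, 0.782 and 1.98 CPM at RT and 2.83, 3.704, 2.34 and 2.42 CPM at TN. The RT groups were apart (-1.73, SE 0.38, adjusted p = 0.0156), and the TN groups were not. Kif20a, a midzone kinesin, stood at 3.78, 5.94, 3.21 and 3.405 CPM in WT RT and 1.69, 2.15, 1.34 and 2.39 CPM in KO RT, with a difference of -1.11 (SE 0.29, adjusted p = 0.0369) and no overlap. All 3 calls were lost without WT RT replicate 18, the library with epididymis transcripts, where the count was 0, and 1 remained without WT RT replicate 13. Kif20a lost its call in 10 of 13 alternative settings.

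**Figure D5:**
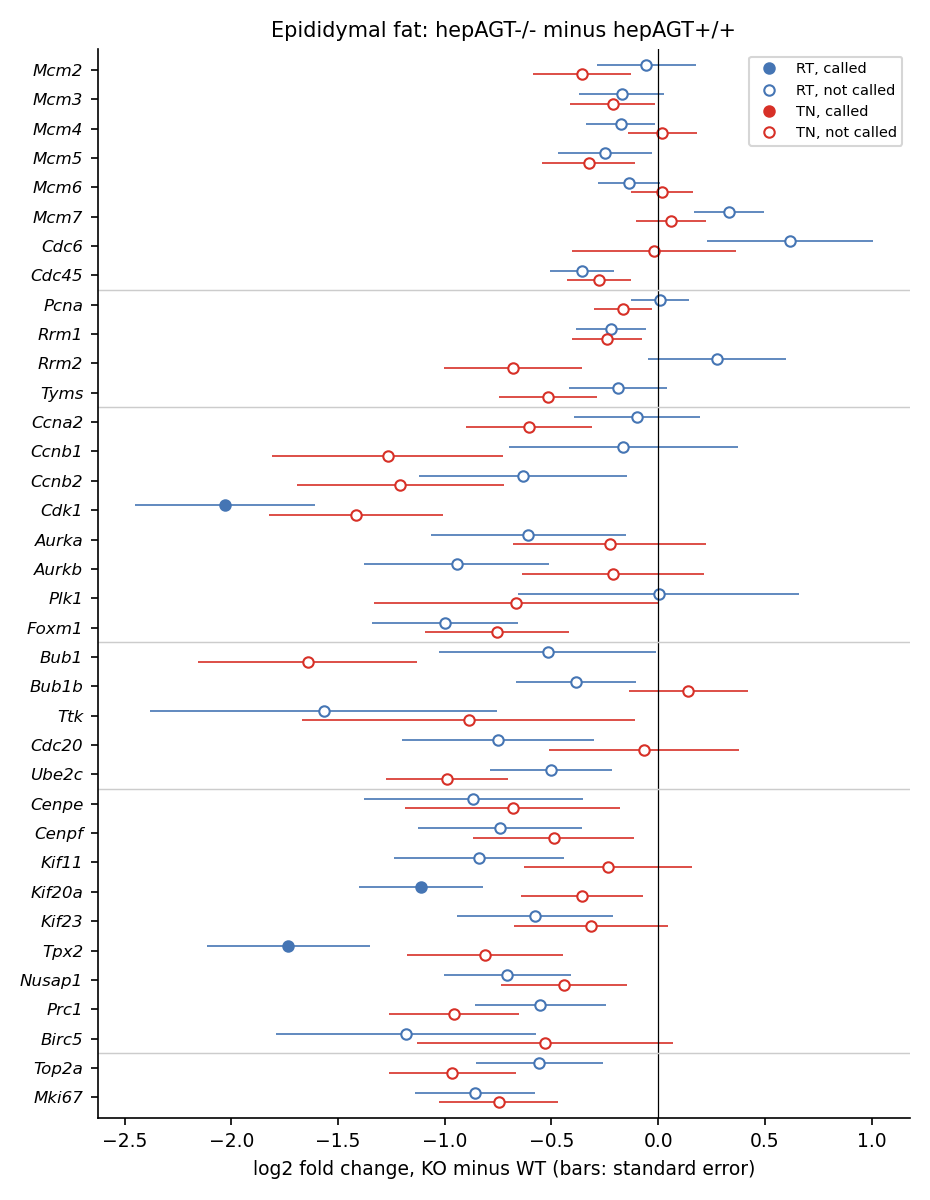
Log2 difference between KO and WT in eWAT for each of the 36 members at RT and at TN, with bars of 1 SE and filled points for called members. Most points lie to the left of 0 at both temperatures (31 and 32 of 36), and Cdk1, Tpx2 and Kif20a at RT are filled.

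At TN 0 of 36 were called (0.586% of all genes were), while 32 lay below 0 with a median of -0.47 and 6 had all KO libraries below all WT libraries (4.94% of all genes did). Unadjusted, 12 members and 2603 of all 18933 genes had a p under 0.05. DESeq2 called 4 members and 675 genes over all. The lowest p-values after Cdk1 were those of Ube2c (-0.99, SE 0.29, adjusted p = 0.113) and Top2a (-0.97, SE 0.30, adjusted p = 0.134). Top2a stood at 6.12, 9.25, 7.3 and 10.3 CPM in WT RT and 15.2, 14.9, 9.204 and 12.3 CPM in WT TN. In KO, Top2a had 3.38, 4.904, 6.87 and 7.24 CPM at RT and 8.63, 7.58, 3.04 and 7.15 CPM at TN. Each WT TN library was above each KO TN library, and the RT groups overlapped. Mki67 stood at 9.76, 14.2, 10.1 and 12.8 CPM in WT RT and 23.8, 20.1, 12.8 and 15.6 CPM in WT TN. In KO, Mki67 had 4.49, 3.68, 8.77 and 8.85 CPM at RT and 13.8, 12.5, 7.94 and 8.83 CPM at TN. Here the RT groups were apart, at -0.86 (SE 0.28, adjusted p = 0.0947), and the TN groups overlapped, at -0.75 (SE 0.28, adjusted p = 0.23); neither was called.

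In the other members followed in every library the genotypes overlapped at both temperatures. Ccnb1 stood at 1.36, 1.58, 1.14 and 2.08 CPM in WT RT and 4.53, 4.49, 1.23 and 2.35 CPM in WT TN. In KO, Ccnb1 had 0.195, 2.25, 1.43 and 1.64 CPM at RT and 1.803, 0.907, 1.39 and 1.12 CPM at TN. Its genotypes overlapped at RT (-0.16, adjusted p = 0.925) and at TN (-1.27, adjusted p = 0.302). Rrm2 stood at 2.04, 2.75, 1.802 and 3.52 CPM in WT RT and 6.03, 4.11, 3.86 and 5.101 CPM in WT TN. In KO, Rrm2 had 1.79, 3.54, 3.07 and 3.86 CPM at RT and 2.898, 4.51, 1.93 and 2.56 CPM at TN. Its KO and WT libraries overlapped at RT (0.28, adjusted p = 0.743) and at TN (-0.68, adjusted p = 0.36). Mcm2 stood at 5.71, 7.996, 3.995 and 7.92 CPM in WT RT and 9.25, 8.01, 6.04 and 8.24 CPM in WT TN. In KO, Mcm2 had 7.26, 5.45, 5.14 and 6.83 CPM at RT and 5.59, 6.803, 5.22 and 6.98 CPM at TN. Mcm2 overlapped between genotypes at each temperature. Mcm5 stood at 6.199, 7.69, 5.89 and 6.84 CPM in WT RT and 9.499, 8.01, 5.85 and 7.03 CPM in WT TN. In KO, Mcm5 had 4.72, 5.31, 4.303 and 8.06 CPM at RT and 5.73, 6.78, 5.19 and 6.54 CPM at TN. It overlapped likewise. Pcna stood at 50.2, 57.8, 40.9 and 51.6 CPM in WT RT and 63.3, 48.3, 54.7 and 43.9 CPM in WT TN. In KO, Pcna had 44.7, 61.2, 51.1 and 44.4 CPM at RT and 45.5, 52.2, 48.6 and 41.3 CPM at TN. Both comparisons overlapped again. By class, the 24 mitotic members had group means of 1.42, 0.59, 1.90 and 1.26 log2 CPM in WT RT, KO RT, WT TN and KO TN, and the 12 replication members 3.13, 3.11, 3.43 and 3.19. Of the further cell cycle genes in eWAT, Spc25, a kinetochore gene (-2.38, adjusted p = 0.0249), and E2f1, the activator E2F (-0.71, adjusted p = 0.0418), were called lower in KO at RT and Cdkn1c, the inhibitor p57, higher in KO at TN (0.92, adjusted p = 0.0437). Cdkn1a was at -1.01 (adjusted p = 0.251) and Ccnd1 at -0.33 (adjusted p = 0.499) at RT.

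Housing changed no member in eWAT by the test. In WT 0 of 36 were called, as was 0% of all genes, and DESeq2 called 0. Unadjusted, 8 members and 1324 of all 18933 genes had a p under 0.05. Of the members, 32 lay above 0 with a median of 0.30. The lowest p-values were those of Prc1 (0.94, SE 0.31, adjusted p = 0.447), Rrm2 (0.92, SE 0.32, adjusted p = 0.505) and Ccnb2 (1.098, SE 0.48, adjusted p = 0.664). In KO 0 were called against 1.74% of all genes, and DESeq2 called 1 member and 1154 genes over all. Unadjusted, 7 members and 3311 of all 18933 genes had a p under 0.05. Of the members, 29 lay above 0 with a median of 0.39. There the lowest p-values were those of Tpx2 at 1.21 (SE 0.38, adjusted p = 0.102), Kif20a at 0.84 (adjusted p = 0.137) and Mki67 at 0.74 (adjusted p = 0.173). The genotype by housing interaction was called for 0 members and 0% of all genes (1 member and 1439 of all 18933 genes at an unadjusted p under 0.05, 0 members by DESeq2), with Rrm2 at -0.96 (adjusted p = 0.655), Kif20a at 0.76 (adjusted p = 0.695) and Tpx2 at 0.92 (adjusted p = 0.699).

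Macrophage transcripts moved alongside in eWAT. The 10 macrophage genes summed to 730.3 to 1153 CPM in WT RT, 558 to 770.2 CPM in KO RT, 1127 to 1972 CPM in WT TN and 849 to 1025 CPM in KO TN. In KO against WT 4 of 10 were called lower at RT (3.13% of all genes were) and 0 at TN (0.412% of all genes were), where all 10 lay below 0. The 7 T cell genes summed to 18.1 to 23.4 CPM in WT TN and 6.66 to 19.3 CPM over the other groups, with 0 called. No macrophage or T cell gene was at 0 in all eWAT libraries, and their part in the result was not tested.

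In liver no member was called in any of the 5 comparisons. The median change furthest from 0 was between housing groups in KO, where all 36 members lay above 0 at TN with a median of 1.18 (0.0063 over all genes). Of these 13 had an unadjusted p under 0.05 (1849 of all 17594 genes had) and 0 were called (0.114% of all genes were). For 6 members all TN libraries lay above all RT libraries and for 0 below, as for 4.35% and 2.9% of all genes. DESeq2 called 3 members and 362 genes over all, and edgeR called 3 members without KO TN replicate 22. Without KO TN replicate 5 the median was 0.63. Libraries are listed as WT RT 11, 12, 15 and 18, WT TN 1, 6, 7 and 24, KO RT 9, 10, 16 and 19, and KO TN 2, 4, 5 and 22. Mcm3, Mcm6 and Mcm5 had the lowest p-values in KO. Mcm3 stood at 6.55, 6.93, 4.22 and 5.55 CPM in WT RT and 4.64, 4.19, 5.13 and 5.39 CPM in WT TN. In KO, Mcm3 had 3.301, 3.03, 3.54 and 2.62 CPM at RT and 7.25, 7.27, 13.2 and 3.04 CPM at TN. Mcm6 stood at 5.405, 3.43, 3.09 and 4.59 CPM in WT RT and 8.42, 12.3, 7.92 and 3.89 CPM in WT TN. In KO, Mcm6 had 2.52, 3.49, 2.28 and 3.93 CPM at RT and 7.54, 9.196, 29.5 and 4.07 CPM at TN. The sister subunit Mcm5 stood at 2.64, 3.23, 4.13 and 2.52 CPM in WT RT and 4.27, 4.09, 1.55 and 2.904 CPM in WT TN. In KO, Mcm5 had 1.17, 1.71, 1.74 and 2.12 CPM at RT and 2.58, 8.25, 13.9 and 1.204 CPM at TN. In KO the TN libraries of Mcm6 lay above those at RT, while 1 TN library of Mcm3 and of Mcm5 reached into the RT range, and replicate 5 was the highest for all 3. The changes in KO were 1.298 (SE 0.32, adjusted p = 0.0927) for Mcm3, 2.05 (SE 0.49, adjusted p = 0.1) for Mcm6 and 1.95 (SE 0.54, adjusted p = 0.137) for Mcm5.

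Replicate 5 of KO TN gave the highest of the 16 liver values for 27 of the 36 members. Mki67 stood at 3.51, 1.97, 0.795 and 1.101 CPM in WT RT and 2.92, 4.74, 2.15 and 1.89 CPM in WT TN. In KO, Mki67 had 0.5502, 1.097, 2.44 and 4.04 CPM at RT and 3.44, 3.72, 11.8 and 3.54 CPM at TN. Without that replicate's value the KO TN range of Mki67 lay within the range of the other groups. Top2a stood at 2.24, 0.551, 1.59 and 5.32 CPM in WT RT and 2.25, 4.26, 3.09 and 1.02 CPM in WT TN. In KO, Top2a had 1.17, 1.097, 1.96 and 1.85 CPM at RT and 3.74, 1.402, 6.38 and 2.66 CPM at TN. Its 4 groups overlapped as well. Cdk1 stood at 0.747, 1.103, 2.69 and 2.34 CPM in WT RT and 0.823, 2.13, 2.21 and 1.59 CPM in WT TN. In KO, Cdk1 had 0.777, 0.613, 0.901 and 0.231 CPM at RT and 0.761, 1.304, 3.99 and 1.77 CPM at TN. Its groups overlapped in each comparison, and replicate 5 of KO TN was again the highest. Mcm2 stood at 3.39, 2.76, 4.38 and 2.93 CPM in WT RT and 3.89, 4.26, 5.797 and 2.57 CPM in WT TN. In KO, Mcm2 had 0.842, 3.45, 1.74 and 2.81 CPM at RT and 2.15, 5.05, 10.1 and 2.62 CPM at TN. Replicate 5 of KO TN lay above all others here too. Ccnb1 was near the limit of detection, at 0.632, 0.394, 0 and 0 CPM in WT RT and 0.225, 0, 0.276 and 0 CPM in WT TN. In KO, Ccnb1 had 0, 0, 0 and 0.616 CPM at RT and 0.132, 0.6196, 0.712 and 0 CPM at TN. No Ccnb1 count was present in 8 of the 16 libraries. Rrm2 stood at 5.95, 4.25, 9.58 and 6.19 CPM in WT RT and 4.603, 7.66, 7.54 and 8.89 CPM in WT TN. In KO, Rrm2 had 4.01, 4.78, 9.07 and 3.54 CPM at RT and 4.04, 6.46, 9.32 and 8.04 CPM at TN. Its 4 groups overlapped. Pcna stood at 32.2, 28.98, 26.8 and 23.4 CPM in WT RT and 30.7, 24.1, 32.8 and 22.99 CPM in WT TN. In KO, Pcna had 23.95, 26.7, 26.1 and 32.6 CPM at RT and 30.8, 31.3, 36.1 and 27.97 CPM at TN. The same held for Pcna. Leaving out KO TN replicates 4 and 5 together, chosen after seeing the data, took the median over the 36 members from 1.18 to 0.56 with 0 calls.

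Markers of immune cells were highest in the same group. The 10 macrophage genes summed to 385 to 864 CPM in KO TN, against 230.1 to 410.4 CPM in KO RT, 342 to 452 CPM in WT RT and 266 to 446 CPM in WT TN, and the 7 T cell genes to 5.17 to 26.9 CPM in KO TN against 2.88 to 4.18 CPM in KO RT, 3.62 to 7.72 CPM in WT RT and 2.63 to 5.46 CPM in WT TN. Replicate 5 had the highest macrophage and T cell sums, 864 and 26.9 CPM. All 10 macrophage genes and all 7 T cell genes lay above 0 in KO at TN against RT, 0 of them called, none of them was at 0 in all liver libraries, and their part in the result was not tested.

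The median over the members was closer to 0 in the other liver comparisons. In KO against WT at RT the median was -0.46 with 10 of 36 above 0. It was -0.20 with replicate 11 of WT RT left out and -0.29 with replicate 18 of that group left out. By edgeR and by DESeq2 0 were called (0.0853% of all genes were called by edgeR, 0.0171% upward and 0.0682% downward). Unadjusted, 3 members and 1799 of all 17594 genes had a p under 0.05. For 3 members all KO libraries lay below all WT libraries, as for 2.83% of all genes. The lowest p-values were those of Mcm3 (-0.89, SE 0.32, adjusted p = 0.299), Birc5 (0.995, adjusted p = 0.355) and Cdk1 (-1.43, adjusted p = 0.382). At TN the median was 0.53 with 31 above 0, and it was 0.14 without KO TN replicate 5 and 0.81 without KO TN replicate 22. By edgeR and by DESeq2 0 were called (3.18% of all genes were by edgeR), and 2 members lay above without overlap (6.23% of all genes did). Unadjusted, 1 member and 3099 of all 17594 genes had a p under 0.05. The lowest p-values belonged to Mcm3 (0.67, SE 0.31, adjusted p = 0.27), Bub1b (1.12, adjusted p = 0.297) and Mcm5 (1.02, adjusted p = 0.315). In WT at TN against RT the median was 0.14. Single libraries moved it to 0.0028 without TN replicate 6, 0.055 without RT replicate 12, 0.21 without RT replicate 11 or TN replicate 1, and 0.25 without TN replicate 24. There, 0 were called by edgeR or DESeq2 (0.0227% of all genes were by edgeR), and 1 member and 1276 of all 17594 genes had an unadjusted p under 0.05. Without overlap, 1 member lay above and 0 below (2.21% and 1.73% of all genes did). The leading members were Birc5 (1.003, SE 0.39, adjusted p = 0.509), Mcm6 (0.97, adjusted p = 0.701) and Nusap1 (1.35, adjusted p = 0.874). The interaction was above 0 for 34 of 36 with a median of 0.87, which was 0.32 without KO TN replicate 5. It was called for 0 members by edgeR or DESeq2 and for 0% of all genes. At an unadjusted p under 0.05 stood 1290 of all 17594 genes and 5 members, led by Mcm3 (1.56, SE 0.45, adjusted p = 0.448), Mcm5 (1.92, adjusted p = 0.576) and Cenpe (3.54, adjusted p = 0.654). Of the further cell cycle genes 1 was called in liver, Mcm10, an initiation factor, higher in KO at TN (0.87, adjusted p = 0.0366). Ccnd1 had a change of 1.56 (adjusted p = 0.0824) at TN against RT in KO, and Cdkn1a of 0.25 (adjusted p = 0.945).

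Whether the housing effect differed between tissues was tested directly over all 48 libraries, averaged over genotypes, in contrasts added after the tissue results were known. The change from RT to TN was larger in BAT than in eWAT for 12 of the 36 members and smaller for 2, against 7.99% and 8.49% of all genes, with a median difference of 1.15 (0.099 over all genes). Against liver it was larger for 5 and smaller for 2, against 7.02% and 9.76%, with a median of 0.87. Rrm2, Top2a, Mki67, Prc1 and Birc5 were larger in BAT in both contrasts. The differences from eWAT and from liver were 3.11 (SE 0.51, adjusted p = 2.49e-05) and 2.88 (SE 0.52, adjusted p = 6.13e-05) for Top2a, 2.58 (SE 0.44, adjusted p = 5.33e-05) and 2.77 (SE 0.44, adjusted p = 1.07e-05) for Rrm2, and 2.51 (SE 0.48, adjusted p = 0.000217) and 2.14 (SE 0.49, adjusted p = 0.00125) for Mki67. Cdc45 and Rrm1 were smaller in both, at -0.91 (adjusted p = 0.0417) and -1.05 (adjusted p = 0.0187) for Cdc45 and -0.59 (adjusted p = 0.0437) and -0.59 (adjusted p = 0.042) for Rrm1. The remaining members larger in BAT than in eWAT were the helicase genes Mcm2, Mcm3, Mcm5 and Mcm6, with differences of 0.95 to 1.64, and Cenpf, Kif11 and Tpx2, with 1.51 to 2.45. Both contrasts use the same BAT libraries. Against eWAT 14 members were called in all, and 9 with no filter on low counts. Single libraries moved the count as well. It was 7 without BAT WT TN replicate 6, 8 without BAT KO TN replicate 2 or eWAT WT TN replicate 23, and 9 without BAT KO RT replicate 14, BAT KO TN replicate 4, BAT WT TN replicate 7, eWAT KO TN replicate 4 or 5, eWAT WT RT replicate 12 or 15, or eWAT WT TN replicate 7.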

How the data were processed

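RNA from snap-frozen liver, BAT and eWAT was extracted with a Maxwell kit, made into NEBNext Ultra libraries and read in pairs on a NovaSeq instrument, per the labels' protocols. The deposited values are raw counts per gene and library. The submitters' processing notes name fastp, STAR 2.6.1d, featureCounts 1.5.0-p3 and GRCm38/mm10, and the annotation release and strand setting are not given in the sources used here. Each tissue's 16 libraries were fitted in R 4.3.3 with edgeR 4.0.16 by robust quasi-likelihood F tests (two-sided) with TMM factors and 1 mean for each group. Genes were kept by filterByExpr (min.count 10), 17594 of them for liver, 18032 for BAT and 18933 for eWAT. All 36 members passed this filter in each tissue, and their p-values were adjusted over all genes of a comparison. In BAT 13, in liver 14 and in eWAT 1 of the members had a count of 0 in some library, so small changes in them were not detectable at this depth. Contrasts between tissues used all 48 libraries. DESeq2 1.42.0, RLE scaling, other filters, fits of the 8 libraries compared and leaving out each library in turn were alternatives. The fit was tested on simulated counts. Log2 CPM means used a prior count of 2, and promoter sequences came from RefSeq (GRCm38.p6).

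Members and gene lists were chosen with earlier results of these data known. The text names all members by count, 8 of them with every library's value, the called members or the 3 with the lowest p of each comparison, up to 5 called genes per direction of the further lists with the largest change, and Cdkn1a and Ccnd1. 1 called gene of the further lists is not reported here. P-values set a difference against the spread between libraries within groups. The titles call these libraries biological replicates. That spread was estimated jointly over all groups of a fit, with information shared across genes, so a group with a wider spread had no estimate of its own. Replicate numbers recur across tissues, each within a single group of genotype and housing, and the labels do not say whether a number marks one animal. Deviations of same-numbered libraries correlated at -0.239 to 0.122 (median 0.007, 35 pairs) and of different numbers at -0.228 to 0.223 (157 pairs). These correlations cannot exclude shared animals. The main fits did not pair libraries by number. If a number marks one animal, the contrasts between tissues treat libraries of the same animal as independent. Counts with the number as a block are given below.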

Additional observations from a re-analysis of the deposited data

Results flagged for a closer look

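A library far from the others was sought in 216 groups of 4 libraries, with the CPM of 17 members or the mean over the members. Chance alone marks about 1 in 20 of such groups, and the libraries marked here do not exceed that share. Replicate 5 of KO TN in liver had 11.8 CPM of Mki67 (the other 3 libraries had 3.44 to 3.72) and 3.31 CPM of Kif20a (others 0.921 to 1.24). In liver, replicate 19 of KO RT had 0.616 CPM of Ccnb1 where the others had 0, and replicate 12 of WT RT had 1.496 CPM of Foxm1 (others 0.122 to 0.345). In BAT KO RT, replicate 19 had 8.20 CPM of Cdc45 (others 5.00 to 5.45) and replicate 14 had 1.06 CPM of Mcm3 (others 3.68 to 4.02). In eWAT, replicate 23 of WT TN had 11.1 CPM of Cdc45 (others 8.92 to 9.03).

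The housing effect differed between tissues by a test of the difference, as a log2 difference of BAT minus eWAT, for Mcm2 (1.01), Mcm5 (1.64), Rrm2 (2.58), Top2a (3.11) and Mki67 (2.51), and of BAT minus liver for Rrm2 (2.77), Top2a (2.88) and Mki67 (2.14).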

How the results depend on the processing

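Counts of called members stayed within 1.5 times the reported count under most alternatives. DESeq2 called 1 member in KO against WT at RT in BAT, 4 in KO against WT at TN in eWAT, 1 at TN against RT in KO in eWAT and 3 at TN against RT in KO in liver, where edgeR called 0 in each. Over all genes DESeq2 called 981, 675, 1154 and 362 in these comparisons, in the same order. At TN against RT in KO in BAT, 3 instead of 13 were called without the libraries at 1000 CPM or more of skeletal muscle markers. Over all genes the same fit called 1293 instead of 2735. For the housing effect in BAT minus eWAT, 9 instead of 14 were called with no filter on low counts and 5 with the replicate number as a block. The block gave 6 calls for BAT minus liver, 22 for BAT against eWAT, 14 for liver against BAT and 26 for liver against eWAT, and a difference in Ube2c level between BAT and eWAT of -0.22 where 1.28 was reported. Left out one at a time, single libraries gave 16 to 23 called members at TN against RT in WT and 7 to 15 in KO in BAT, 0 to 1 in KO against WT at RT in BAT (1 without WT RT replicate 12), 0 to 2 in KO against WT at RT in eWAT, 0 to 3 at TN against RT in KO in liver, 7 to 15 for BAT minus eWAT, 6 to 9 for BAT minus liver, 29 to 32 for BAT against eWAT, 13 to 17 for liver against BAT and 26 to 30 for liver against eWAT, and 0 in the others. The BAT minus liver difference in housing effect of Ccnb1 was 1.597 in the main fit and -0.031 with the replicate block. It was -1.17 to 1.99 with single libraries left out (-1.17 without liver KO RT replicate 19). The mean log2 CPM of the members with a prior count of 0.5 was -0.417 in KO RT and -0.578 in WT RT in BAT and -0.401 in KO RT and -0.199 in WT RT in liver, and with a prior count of 5 it was 0.142, 0.068 and 0.195 in the first 3 of these. The cause of each change was not tested, beyond the smaller number of libraries or genes in those fits. Low counts limit what could be seen: the median over members of the median count per library was 31.0 in liver, 35.8 in BAT and 114 in eWAT, and reached as low as 2 for a member in liver and BAT.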
